A study of Mus musculus with 100 samples.

Results

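The genes described here are 10 members of the osteoclast programme and of the RANKL axis, namely Tnfsf11, Tnfrsf11a, Tnfrsf11b, Nfatc1, Dcstamp, Ocstamp, Atp6v0d2, Ctsk, Acp5 and Calcr. They were picked by name, for their known roles and with earlier results of these data known, and all 10 were found among the 17310 genes of the deposited count table. RNA-seq was carried out on 100 knee joints from mice of 3 strains, MRL/MpJ, C57BL/6 and STR/ort, whose age at injury was 10 weeks. In the injured groups the right knee received a tibial compression of 10 to 12 N, which ruptures the anterior cruciate ligament, and the opposite, uninjured knee of injured mice served as the contralateral control 1-day, 1-week or 2-weeks after the injury. Joints taken before injury formed the 0-day groups, with 4 libraries per strain, and the other 18 groups held 4 or 5 libraries each. Each library held polyadenylated RNA of a whole joint, with the bone ends and a little of the surrounding soft tissue. The 2-weeks libraries are the 30 of experimental batch 2 and all 70 others are batch 1, so time and batch cannot be told apart for any step to 2-weeks.

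Osteoclasts are the multinucleated cells that resorb bone, and they form by fusion of monocyte and macrophage precursors. RANKL, the product of Tnfsf11, is presented mainly by osteocytes, osteoblast-lineage cells, hypertrophic chondrocytes, synovial fibroblasts and activated T cells, and it binds the receptor RANK (Tnfrsf11a) on the precursors. Osteoprotegerin (Tnfrsf11b) is a soluble decoy receptor that holds RANKL away from RANK. RANK signalling induces Nfatc1, the transcription factor at the centre of osteoclast differentiation, and Nfatc1 in turn acts on genes for fusion (Dcstamp, Ocstamp, Atp6v0d2) and for matrix breakdown (Ctsk, Acp5) as well as the calcitonin receptor (Calcr).

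On GRCm38, Tnfsf11 lies at chr14:78277445-78308043 on the minus strand, Tnfrsf11a at chr1:105780718-105847981 on the plus strand and Tnfrsf11b at chr15:54250619-54278484 on the minus strand. Counts cover the exons of each gene, here Ctsk (chr3:95499256-95509362, plus strand) and Acp5 (chr9:22126727-22135711, minus strand) among the resorption genes. The promoters of a bone-resorption pair and of the ligand are shown because Ctsk and Acp5 varied together from joint to joint while Tnfsf11 was the member that differed most between strains. RefSeq (GRCm38.p6) held a promoter for 5 of the 10 members, in 8 windows of 250 bases ending just before an annotated start. The Ctsk window lies on the plus strand at chr3:95498960-95499209, and its capitals mark both matches to GAGGAAG, the letters bound by PU.1, or to their reverse complement. The first of the Acp5 windows lies on the minus strand at chr9:22135747-22135996 and the Tnfsf11 window on the minus strand at chr14:78308044-78308293, and capitals in both mark the NFAT core GGAAA.
Ctsk: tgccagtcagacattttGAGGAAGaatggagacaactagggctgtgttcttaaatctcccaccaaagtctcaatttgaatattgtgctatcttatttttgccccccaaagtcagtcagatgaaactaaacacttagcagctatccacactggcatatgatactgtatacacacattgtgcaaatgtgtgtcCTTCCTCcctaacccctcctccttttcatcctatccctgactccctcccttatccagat
Acp5: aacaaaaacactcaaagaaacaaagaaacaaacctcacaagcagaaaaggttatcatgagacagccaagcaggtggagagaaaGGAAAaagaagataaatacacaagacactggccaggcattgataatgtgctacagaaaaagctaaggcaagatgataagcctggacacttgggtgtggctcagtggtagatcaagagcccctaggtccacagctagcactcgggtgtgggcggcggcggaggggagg
Tnfsf11: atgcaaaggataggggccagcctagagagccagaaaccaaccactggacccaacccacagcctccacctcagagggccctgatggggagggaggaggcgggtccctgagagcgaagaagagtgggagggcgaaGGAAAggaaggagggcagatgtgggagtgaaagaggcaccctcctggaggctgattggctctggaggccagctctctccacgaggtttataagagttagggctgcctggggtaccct
Searched on both strands, GGAAA occurred in 5 of the 8 windows, against 55.6% of 32851 mouse promoter windows of the same length, and GAGGAAG occurred in 1 of the 8, against 10.6%. Neither the AP-1 letters TGANTCA (6.75% of all windows) nor the MITF letters TCACGTG (3.13%) were found in the 8 windows. These are letter matches only and say nothing of binding.

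Library totals ran from 6182016 to 20986027 counts (median 10582591.5), and every member had counts in every library. Levels are given as CPM, which are counts relative to the library total after scaling by trimmed means over all 100 libraries, and as RPKM, which also divides by exon length, wherever genes are compared with each other. By median RPKM over the 100 libraries, Ctsk, the collagen-degrading protease (251), and Acp5, the tartrate-resistant acid phosphatase (166), were the most abundant members. Atp6v0d2, a subunit of the proton pump, had a median of 18.6 RPKM, Nfatc1 of 11.3 and Tnfrsf11b of 6.77. The other members were low, with median RPKM of 2.03 for Tnfrsf11a, 1.96 for Dcstamp, 1.89 for Tnfsf11, 1.03 for Ocstamp and 0.465 for Calcr. Calcr was as low as 6 counts in a library and under 1 CPM in 5 libraries, so its differences carry the widest errors.

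Groups are compared below with edgeR's quasi-likelihood test, and a gene is called changed where the Benjamini-Hochberg adjusted p over all genes is under 0.05 and the fold change is over 1.5. Tnfsf11 spanned the widest range of group means, with its highest group 5.20 times its lowest on the CPM scale, and Nfatc1 the narrowest at 1.78 times. The other members spanned 2.01 times (Acp5) to 3.41 times (Tnfrsf11b). When the 21 groups were ordered by mean CPM, neighbouring groups overlapped in range in all 20 pairs for 8 members and in 19 of 20 for Tnfrsf11a and Nfatc1. Overlap of neighbours is likely once so many groups are sorted by mean. It shows that neighbouring ranks are not fixed and does not bear on groups farther apart.

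**Figure D1:**
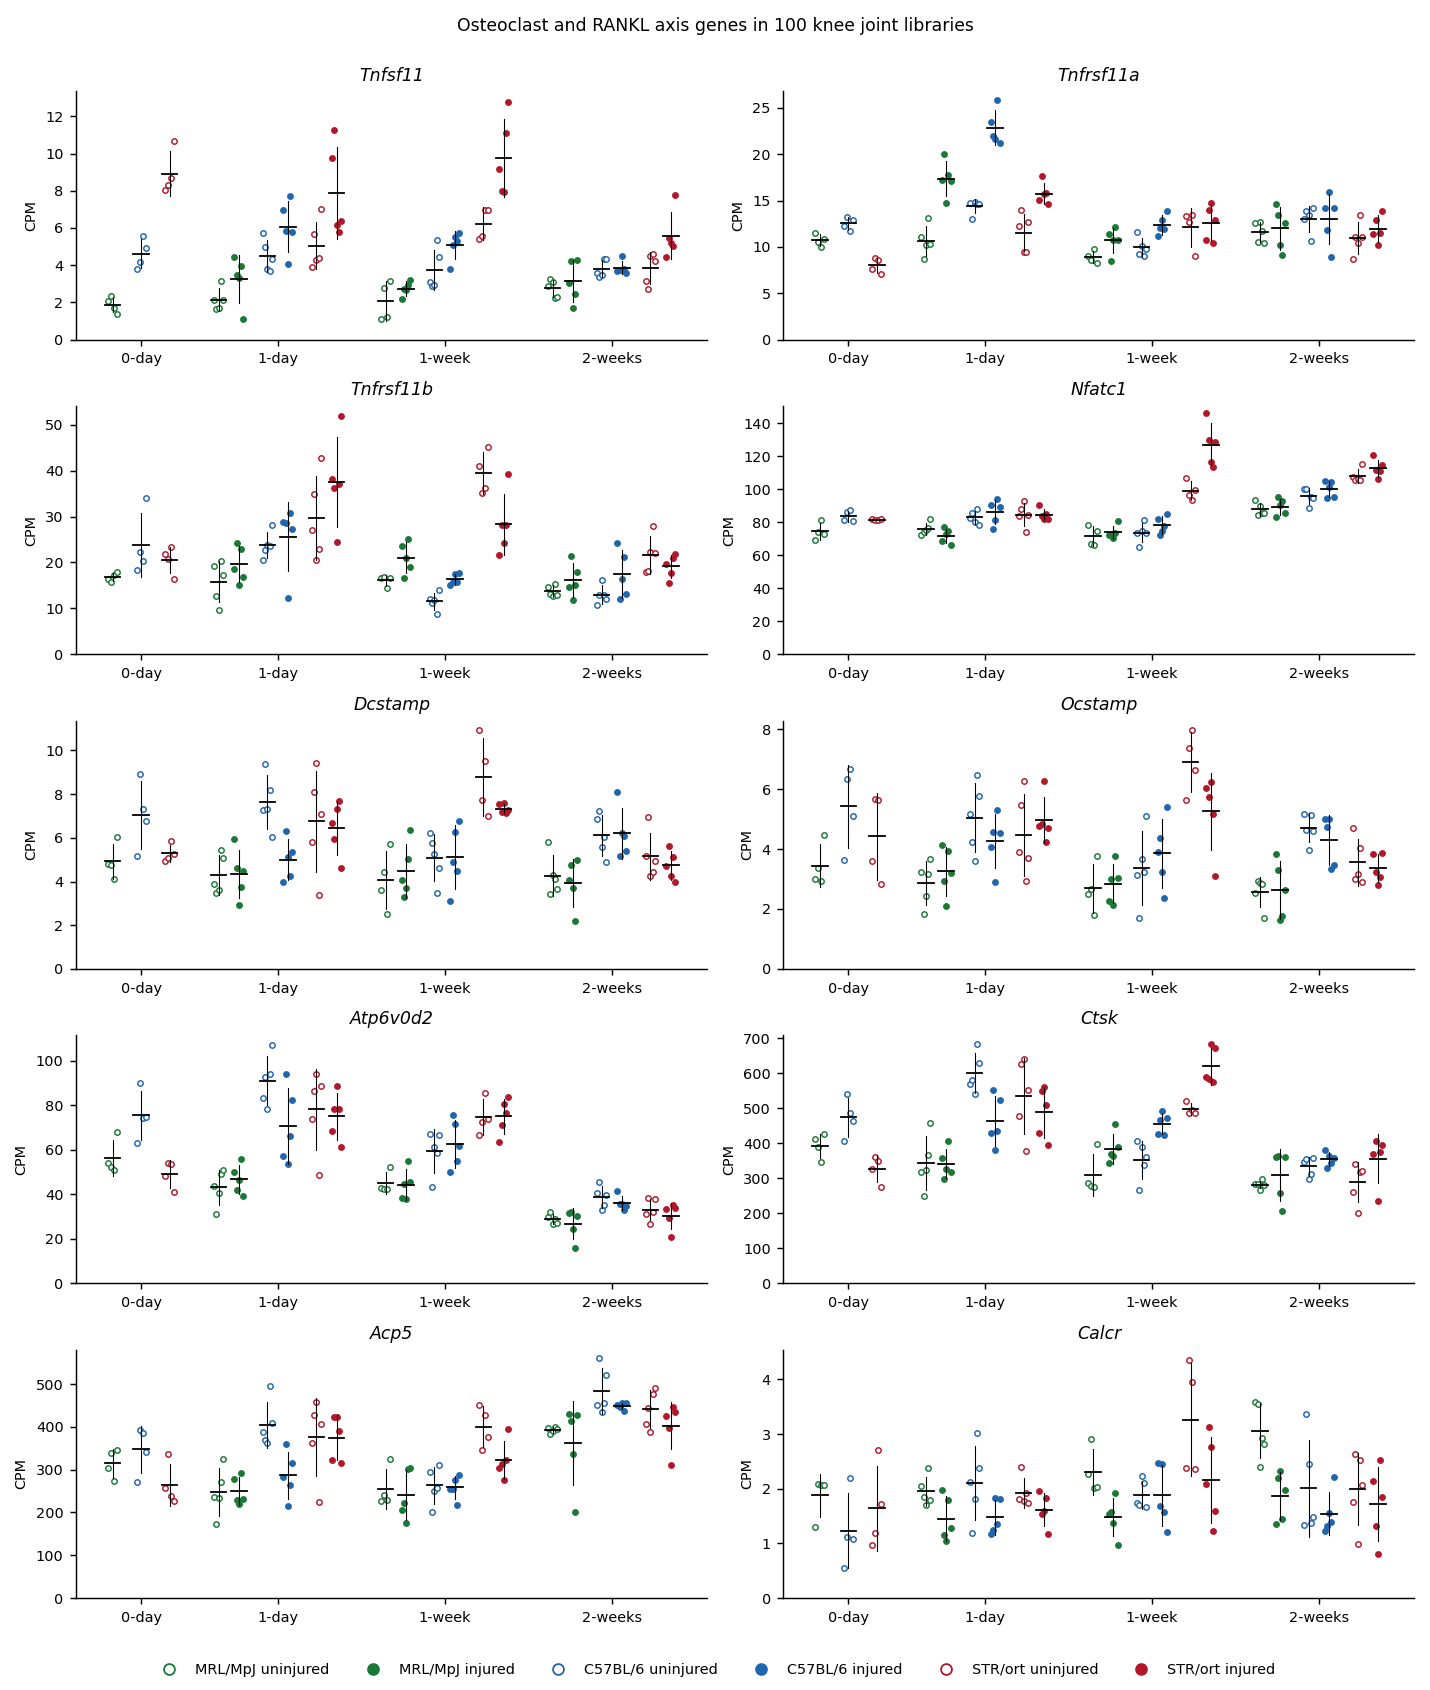
CPM of each of the 10 members in every library, one panel per gene, with strains in green (MRL/MpJ), blue (C57BL/6) and red (STR/ort), open symbols for uninjured and filled for injured joints, lines for group means and bars for SD. Tnfsf11 separates the strains at 0-day, from 1.38 to 2.33 CPM in MRL/MpJ to 8.05 to 10.7 CPM in STR/ort, and Tnfrsf11a is highest in the injured joints of 1-day.

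Before injury, the ligand gene Tnfsf11 separated all 3 strains. Its level in MRL/MpJ joints was 2.10, 2.33, 1.72 and 1.38 CPM. In C57BL/6 joints it was 3.80, 4.18, 5.57 and 4.91 CPM, and in STR/ort joints 8.05, 8.29, 8.67 and 10.7 CPM. The lowest STR/ort joint was above the highest C57BL/6 joint, which in turn had every library above MRL/MpJ. STR/ort exceeded MRL/MpJ by 2.19 ± 0.20 (log2, SE), a 4.58-fold difference (edgeR adjusted p = 8.92e-08), and exceeded C57BL/6 by 0.91 ± 0.16 (1.88-fold, adjusted p = 0.000229). C57BL/6 exceeded MRL/MpJ by 1.29 ± 0.21 (2.44-fold, adjusted p = 9.74e-05). After removal of 2 unwanted factors estimated from 25 housekeeping genes (RUVg), the difference between STR/ort and MRL/MpJ stayed called at 2.25, while those of STR/ort over C57BL/6 (0.64, adjusted p = 0.407) and of C57BL/6 over MRL/MpJ (1.61, adjusted p = 0.122) were no longer called.

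The receptor gene Tnfrsf11a ran the other way at 0-day, with the lowest levels in STR/ort. Levels were 7.57, 8.77, 8.56 and 7.12 CPM in STR/ort against 12.2, 13.3, 11.7 and 12.96 CPM in C57BL/6, with no overlap, and 10.7 ± 0.62 CPM in MRL/MpJ (SD, n = 4). The difference between STR/ort and C57BL/6 was -0.69 ± 0.11 (log2, SE; adjusted p = 9.78e-05), 1.61-fold lower in STR/ort, and it was not called with 2 RUVg factors (-0.40, adjusted p = 0.401) or with libraries scaled to 10 osteoblast and osteocyte markers, a scaling chosen after the data had been seen (-0.30, adjusted p = 0.219). Atp6v0d2, the proton pump subunit that also takes part in fusion, was 48.2, 54.1, 53.5 and 40.9 CPM in STR/ort and 63.1, 89.98, 74.3 and 74.8 CPM in C57BL/6, again without overlap. It was 1.58-fold lower in STR/ort (-0.66 ± 0.11, adjusted p = 0.000195), and the call was lost without C57BL/6 replicate 2 (-0.56) or STR/ort replicate 4 (-0.58) and with 1 RUVg factor (-0.55) or 2 (-0.05) or this bone marker scaling (-0.27). Ctsk was 1.49-fold lower in STR/ort, just under the fold threshold, at 328 ± 38.5 CPM against 474 ± 55.0 CPM (SD, n = 4). In whole-joint RNA, fewer osteoclasts, less RNA per osteoclast and a changed share of other cells cannot be told apart, here and below. The decoy gene Tnfrsf11b was 20.6 ± 2.93 CPM in STR/ort, 23.7 ± 7.01 CPM in C57BL/6 and 16.8 ± 0.93 CPM in MRL/MpJ (SD, n = 4) and was called in none of the 3 comparisons.

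At 0-day, 3 of the 10 members were thus called between STR/ort and C57BL/6, where 13.8% of all genes were called, 1 between STR/ort and MRL/MpJ (14.8% of all genes) and 2 between C57BL/6 and MRL/MpJ (15.9%). The second member called between C57BL/6 and MRL/MpJ was Ocstamp, a fusion protein gene, at 5.44 ± 1.39 against 3.44 ± 0.72 CPM (SD, n = 4; log2 difference 0.72 ± 0.25, adjusted p = 0.0295). That call was lost without MRL/MpJ replicates 1 (0.66), 2 (0.68) or 3 (0.67) or C57BL/6 replicates 2 (0.63) or 3 (0.62), each left out in turn, and with 1 RUVg factor (0.74, adjusted p = 0.0718) or the bone marker scaling (0.096), and its sign turned with 2 RUVg factors (-0.41). With housekeeping scaling 4 members were called between STR/ort and C57BL/6, 1 between STR/ort and MRL/MpJ and 4 between C57BL/6 and MRL/MpJ. Other tissues differed between the same joints. Of 8 macrophage markers 4 were lower and 1 higher in STR/ort than in C57BL/6, with summed levels of 247 to 310 CPM against 411 to 464 CPM, and of 8 fast muscle markers 7 were higher, with sums of 74270 to 84140 CPM against 32610 to 52440 CPM. Between C57BL/6 and MRL/MpJ, 6 of 10 osteoblast and osteocyte markers were higher in C57BL/6 (2428 to 3417 CPM against 1639 to 2213 CPM), as were 7 of 8 chondrocyte markers. The fibroblast and synovium markers summed to 2022 to 2568 CPM in MRL/MpJ, 3532 to 5427 CPM in C57BL/6 and 4458 to 8530 CPM in STR/ort, the order of the Tnfsf11 means, and of these 8 markers 6 were higher in STR/ort than in MRL/MpJ, 7 in C57BL/6 than in MRL/MpJ and 1 in STR/ort than in C57BL/6. T cell sums ran in the reverse order, at 63.8 to 71.8 CPM in MRL/MpJ, 35.9 to 41.5 CPM in C57BL/6 and 21.1 to 27.6 CPM in STR/ort. The part of these tissues in the member differences was not tested.

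After injury, the receptor gene was the member that rose at 1-day. At 1-day post-injury Tnfrsf11a reached 17.2, 20.1, 14.7, 17.8 and 17.1 CPM in injured MRL/MpJ joints, against 11.1, 8.67, 10.2, 13.1 and 10.3 CPM in uninjured contralateral joints. In C57BL/6 it was 23.5, 22.02, 21.7, 25.8 and 21.2 CPM in injured joints against 14.7, 13.1, 14.9, 14.6 and 14.6 CPM. In STR/ort the injured joints had 15.0, 17.6, 15.7, 15.8 and 14.6 CPM and the contralateral joints 12.2, 14.0, 9.44, 9.497 and 12.7 CPM. Every injured joint exceeded every contralateral joint of its strain. Tnfrsf11a rose by 0.72 ± 0.11 (log2, SE) in MRL/MpJ (adjusted p = 3.43e-05) and by 0.67 ± 0.10 in C57BL/6 (adjusted p = 1.21e-05). In STR/ort the difference was 0.43 ± 0.10 (adjusted p = 0.00637), which lies under the 1.5-fold threshold. The injury effect was not shown to differ between strains. The STR/ort effect minus the C57BL/6 effect was -0.24 (95% interval -0.54 to 0.05, adjusted p = 0.399), and minus the MRL/MpJ effect it was -0.29 (-0.60 to 0.009, adjusted p = 0.75).

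Macrophages also express RANK, and macrophage markers moved in the same direction at 1-day. In C57BL/6, 4 of the 8 macrophage markers rose and none fell, and their summed level was 606 to 728 CPM in injured against 431 to 468 CPM in contralateral joints. In MRL/MpJ 2 of 8 rose (378 to 464 CPM against 326 to 372 CPM) and in STR/ort 2 of 8 (470 to 520 CPM against 357 to 456 CPM). Their part in the Tnfrsf11a change was not tested. With the bone marker scaling the MRL/MpJ change was 0.43 (adjusted p = 0.0503) and no longer called, whereas the C57BL/6 change stayed called under every alternative tried.

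The other member called at 1-day fell. Dcstamp, the cell-surface protein required for osteoclast fusion, was 3.96, 6.31, 5.12, 4.27 and 5.34 CPM in injured C57BL/6 joints and 7.30, 9.38, 7.31, 8.19 and 6.03 CPM in their contralateral joints. The groups overlapped by 1 joint at each edge, with the highest injured joint above the lowest contralateral joint. The decrease was 0.63 ± 0.20 on the log2 scale (adjusted p = 0.0283). The call was lost without C57BL/6 injured replicates 1 (-0.56, adjusted p = 0.0794), 3 (-0.62, 0.051) or 4 (-0.57, 0.0954), without contralateral replicates 2 (-0.54, 0.0797) or 4 (-0.60, 0.0617), and with the bone marker scaling (-0.55, 0.0923). In the same joints Acp5 was 287 ± 54.7 against 405 ± 53.9 CPM (SD, n = 5; log2 difference -0.50, adjusted p = 0.0254) and Ctsk 464 ± 71.5 against 601 ± 56.9 CPM (-0.37, adjusted p = 0.0587), both under the fold threshold. Between these joints 2 of 8 chondrocyte markers fell (sums of 908 to 3743 CPM in injured and 2974 to 4241 CPM in contralateral joints). The osteoblast and osteocyte sums were 1623 to 2693 CPM against 2552 to 3069 CPM, with 1 of 10 markers higher, and the marrow neutrophil sums 9708 to 12430 CPM against 14050 to 17360 CPM, with 0 of 8 called. Their part in the Dcstamp decrease was not tested.

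In all, 1 of 10 members was called at 1-day in MRL/MpJ (2.02% of all genes called), 2 in C57BL/6 (5.6%) and none in STR/ort (4.31%), where edgeR gave an unadjusted p under 0.05 for 2 members and DESeq2 called none. The median log2 change over the members was 0.08, -0.30 and -0.02 in the 3 strains, and over all genes 0.01, -0.02 and -0.02. Tnfsf11 was higher on average in injured joints of each strain at 1-day without being called, at 3.25 ± 1.28 against 2.15 ± 0.61 CPM in MRL/MpJ, 6.08 ± 1.38 against 4.50 ± 0.85 CPM in C57BL/6 and 7.86 ± 2.47 against 5.06 ± 1.28 CPM in STR/ort (SD, n = 5). Its adjusted p-values were 0.311, 0.174 and 0.0929. In C57BL/6 Calcr was also called lower in injured joints with housekeeping scaling (-0.60) and with RUVg of 1 (-0.59) or 2 factors (-0.66), and Acp5 with 2 factors (-0.62).

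**Figure D2:**
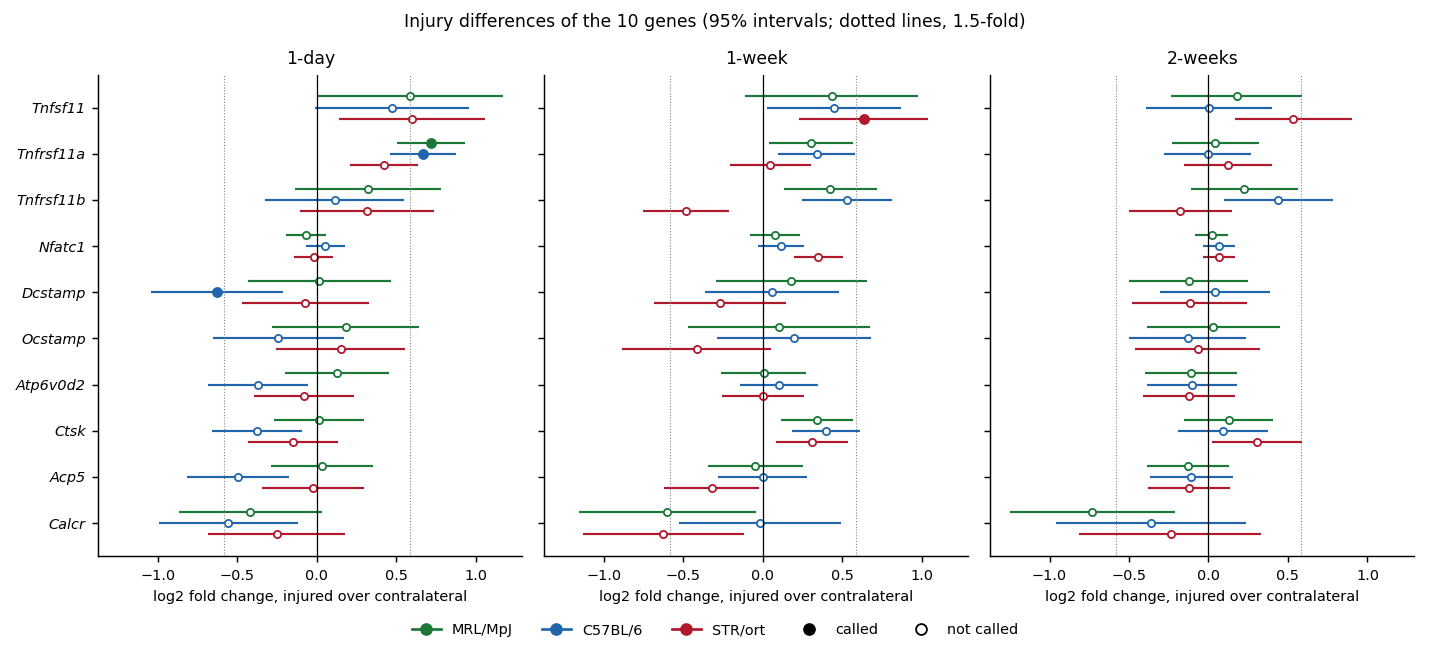
Log2 fold change of injured over uninjured contralateral joints for each member, with 95% intervals, in panels for 1-day, for 1-week and for 2-weeks, coloured by strain, with filled symbols for called changes and dotted lines at 1.5-fold. Tnfrsf11a stands to the right at 1-day in all 3 strains (0.43 to 0.72) and the Tnfrsf11b points of STR/ort and C57BL/6 lie on opposite sides of 0 at 1-week (-0.48 and 0.53).

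At 1-week post-injury Tnfrsf11a in MRL/MpJ and C57BL/6 was lower than at 1-day in injured joints, and its contralateral means were lower too. Contralateral means were 10.7 CPM at 1-day and 8.92 CPM at 1-week in MRL/MpJ, and 14.4 and 9.97 CPM in C57BL/6. Injured means at 1-week were 10.7 CPM in MRL/MpJ and 12.4 CPM in C57BL/6. The change of the injury effect on Tnfrsf11a between these times was called in neither strain. Injured MRL/MpJ joints had 11.5, 8.50, 10.8, 12.1 and 10.7 CPM and injured C57BL/6 joints 11.1, 12.0, 12.9, 11.9 and 13.9 CPM, all below every injured joint of the same strain at 1-day. The decrease from 1-day to 1-week was 0.66 ± 0.10 (log2, SE; adjusted p = 2.65e-06) in MRL/MpJ and 0.88 ± 0.10 (adjusted p = 7.89e-10) in C57BL/6, in a fit of the 70 batch 1 libraries. Both decreases were no longer called with the bone marker scaling (-0.32 and -0.18), the one alternative that ended either call. Macrophage markers fell over the same step in 5 of 8 in C57BL/6 (606 to 728 CPM at 1-day and 410 to 492 CPM at 1-week) and in 1 of 8 in MRL/MpJ (378 to 464 CPM and 368 to 418 CPM), and their part was not tested. Tnfrsf11a was the single member called in MRL/MpJ in this comparison, where 3.11% of all genes were called, and 1 of 2 in C57BL/6 (4.47%), the other being Tnfrsf11b (-0.66, adjusted p = 0.0106), which was not called without C57BL/6 injured replicate 4 of 1-day (-0.58), with housekeeping scaling (-0.51) or with 1 RUVg factor (-0.56), and whose sign turned with the bone marker scaling (0.11). In STR/ort no member was called (13.9% of all genes), with 4 at an unadjusted p under 0.05 in edgeR and Tnfrsf11a at -0.33 (adjusted p = 0.00992), and DESeq2 called 1 member. That member, Nfatc1, was also called higher at 1-week with RLE size factors (0.61), housekeeping scaling (0.68), 2 RUVg factors (0.59), the compared groups alone (0.60) and the bone marker scaling (1.07), the last of which called 5 members.

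At 1-week the injury effect on the decoy gene Tnfrsf11b differed between strains and took opposite signs. Injured STR/ort joints had 21.7, 28.1, 24.2, 28.3 and 39.2 CPM, and contralateral STR/ort joints 41.0, 35.2, 36.3 and 45.3 CPM. Injured C57BL/6 joints had 15.0, 15.7, 17.5, 15.8 and 17.8 CPM, and contralateral C57BL/6 joints 12.1, 11.2, 11.8, 8.75 and 14.0 CPM. Injured MRL/MpJ joints had 23.5, 16.6, 20.9, 25.2 and 19.0 CPM, against 16.6, 16.8, 14.4 and 16.6 CPM. In STR/ort 4 of 5 injured joints lay below all contralateral joints, in C57BL/6 all injured joints lay above all contralateral joints, and in MRL/MpJ 4 of 5 did. The log2 differences were -0.48 ± 0.13 in STR/ort (adjusted p = 0.00873), 0.53 ± 0.14 in C57BL/6 (adjusted p = 0.00963) and 0.43 in MRL/MpJ (adjusted p = 0.0957), each under 1.5-fold by itself. With the replicate number as a block the STR/ort decrease was 0.63 (adjusted p = 0.000146) and passed the fold threshold. Injured replicate 5 (39.2 CPM) has no contralateral partner and does not enter that estimate. The effects of blocking and of losing this joint were not separated. Contralateral joints were themselves away from the 0-day level at 1-week. Mean Tnfrsf11b in STR/ort was 20.6 CPM at 0-day, 39.4 CPM in contralateral and 28.3 CPM in injured joints at 1-week, and in C57BL/6 23.7, 11.6 and 16.4 CPM, so that in both strains the injured mean lay between the 0-day and the contralateral mean.

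The difference between the strains' responses was itself significant. The STR/ort effect minus the C57BL/6 effect was -1.01 ± 0.19 (log2, SE; adjusted p = 0.00835), and minus the MRL/MpJ effect it was -0.91 ± 0.20 (adjusted p = 0.0163). Tnfrsf11b was the only member called in either comparison, in which 0.491% and 0.884% of all genes were called. No member was called in the other 7 such differences, where 2.66%, 0.162% and 0.318% (1-day), 0% (1-week) and 0.0462%, 0.451% and 0% (2-weeks) of all genes were, and where edgeR gave an unadjusted p under 0.05 for 0 to 3 members and DESeq2 called 0. Both calls were kept whichever library was left out. Of the alternatives they were lost only with the bone marker scaling (-0.58, adjusted p = 0.131, and -0.39, adjusted p = 0.206). In the same STR/ort joints 5 of 10 osteoblast and osteocyte markers were lower and 1 higher after injury, with summed levels of 2528 to 3436 CPM in injured and 2966 to 4402 CPM in contralateral joints, and 6 of 8 fast muscle markers were lower (13850 to 30470 CPM against 27760 to 53600 CPM). In C57BL/6 and MRL/MpJ, 7 of 8 fibroblast and synovium markers were higher after injury, with sums of 4578 to 5180 CPM against 1990 to 2587 CPM and of 4558 to 5207 CPM against 2299 to 2494 CPM. The part of these cell types in the Tnfrsf11b difference was not tested.

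The ligand gene was the member called at 1-week after injury in STR/ort. Tnfsf11 was 9.17, 7.96, 7.93, 11.1 and 12.8 CPM in injured STR/ort joints and 5.40, 5.56, 6.99 and 6.98 CPM in contralateral joints, without overlap. It was higher in injured joints by 0.64 ± 0.20 (log2, SE; adjusted p = 0.0205), and was 1 of 10 members called where 9.21% of all genes were. The STR/ort joints of 0-day had 8.05 to 10.7 CPM, which overlapped the injured joints and lay above every contralateral joint of 1-week. With the replicate block the change was 0.51 (adjusted p = 0.0267) and below 1.5-fold, as it was with 1 RUVg factor (0.53) or 2 (0.46). Injured replicate 5, which has no contralateral partner, does not enter the block estimate. The call was also lost without STR/ort injured replicate 5 (0.52, adjusted p = 0.0706) or contralateral replicates 1 (0.58, 0.0541) or 2 (0.58, 0.058). In C57BL/6 the difference was 0.45 (adjusted p = 0.183) and in MRL/MpJ 0.43 (adjusted p = 0.519), and the effect in STR/ort did not differ detectably from either, by 0.19 (95% interval -0.40 to 0.77) and 0.20 (-0.49 to 0.89).

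The ratio of Tnfsf11 to Tnfrsf11b, each in RPKM, was higher in injured than in contralateral STR/ort joints at 1-week. It was 0.532, 0.358, 0.412, 0.494 and 0.409 in injured joints and 0.166, 0.199, 0.242 and 0.194 in contralateral joints, with no overlap. In MRL/MpJ the ratio ranged from 0.117 to 0.213 in injured and from 0.0857 to 0.240 in contralateral joints. In C57BL/6 it ranged from 0.319 to 0.422 (median 0.407) in injured and from 0.315 to 0.770 (median 0.326) in contralateral joints, where replicate 4 lay at 0.770 and the others at 0.315 to 0.399. In both strains the groups overlapped. In STR/ort at 2-weeks the ratio ranged from 0.285 to 0.449 in injured joints and from 0.189 to 0.253 in contralateral joints, again apart. At the same time it overlapped in C57BL/6, at 0.191 to 0.390 (mean 0.299) against 0.271 to 0.456 (mean 0.381), and in MRL/MpJ, at 0.183 to 0.300 (mean 0.239) against 0.185 to 0.311 (mean 0.256). At 1-day the groups overlapped in all 3 strains, in STR/ort at 0.155 to 0.392 in injured against 0.183 to 0.265 in contralateral joints. Before injury the mean ratio was 0.142 in MRL/MpJ, 0.256 in C57BL/6 and 0.565 in STR/ort. The ratio is a description of transcripts and was not tested, and it combines the called and uncalled differences given above.

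**Figure D3:**
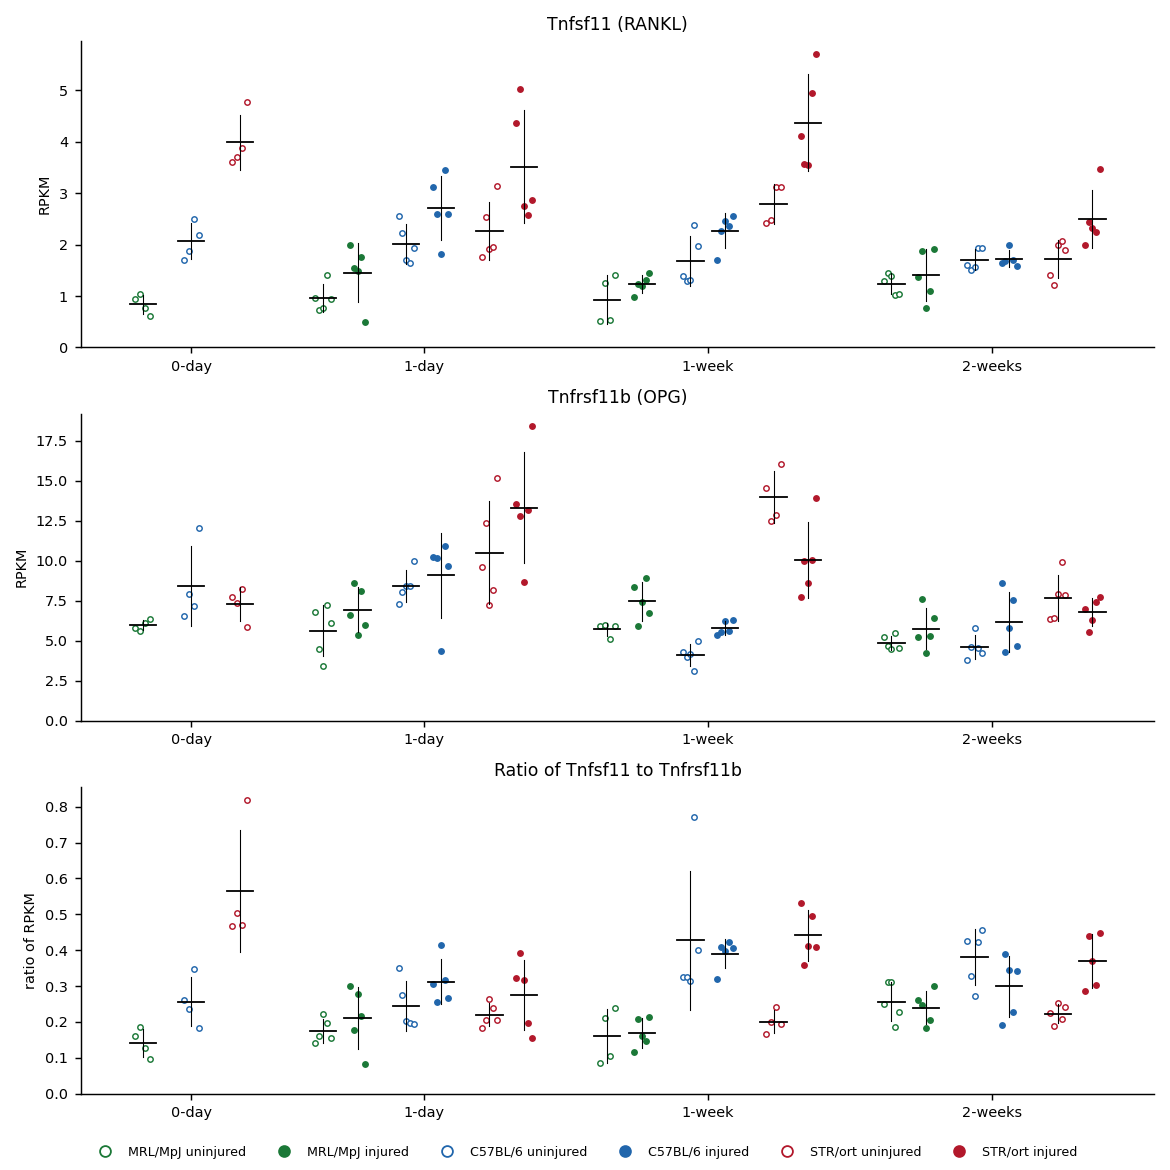
RPKM of Tnfsf11, RPKM of Tnfrsf11b and their ratio in every library, by strain, joint and time, with open symbols for uninjured and filled symbols for injured joints. In STR/ort at 1-week the 5 injured joints lie at ratios of 0.358 to 0.532, above the 4 contralateral joints at 0.166 to 0.242.

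Nfatc1 was the least variable member, with a median coefficient of variation within groups of 5.39%. In STR/ort at 1-week it was 147, 130, 117, 114 and 129 CPM in injured joints and 107, 96.5, 93.5 and 99.6 CPM in contralateral joints, with every injured joint higher. The difference of 0.35 ± 0.08 (log2, SE; adjusted p = 0.000981) was under 1.5-fold. Injured C57BL/6 joints at 1-week had 81.9, 72.5, 74.6, 77.8 and 85.1 CPM and injured MRL/MpJ joints 72.2, 72.3, 70.6, 73.8 and 80.8 CPM, all below the lowest injured STR/ort joint. Injured STR/ort joints exceeded injured C57BL/6 joints by 0.68 ± 0.07 (adjusted p = 5.7e-09) and injured MRL/MpJ joints by 0.77 ± 0.07 (adjusted p = 3.91e-10). The first of these calls was lost with scaling to housekeeping genes (0.51) or with 1 RUVg factor (0.52), the second with 1 RUVg factor (0.58), and both with the bone marker scaling (0.13 and 0.26). At 0-day and 1-day Nfatc1 group means lay between 71.8 and 86.3 CPM in all strains.

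Ctsk, the main collagenase of osteoclasts, differed in C57BL/6 in its injured minus contralateral difference between 1-day and 1-week. At 1-day injured joints had 429, 552, 380, 435 and 524 CPM and contralateral joints 568.0, 582, 540, 684 and 629 CPM, whereas at 1-week injured joints had 427, 468, 492, 423 and 471 CPM and contralateral joints 408, 267, 388, 337 and 361 CPM. The injured joints were on the low side at 1-day, overlapping by 1 joint, and above every contralateral joint at 1-week. The injury effect rose by 0.77 ± 0.18 (log2, SE; adjusted p = 0.00571) from 1-day to 1-week, the single member so called in C57BL/6 (1.53% of all genes). This call was kept under every alternative and without any one library. The injured means were 464 CPM at 1-day and 456 CPM at 1-week, and the contralateral means 601 and 352 CPM, and thus the contralateral mean moved more than the injured mean. In those contralateral joints the osteoblast and osteocyte markers summed to 2552 to 3069 CPM at 1-day and 1429 to 2075 CPM at 1-week and the chondrocyte markers to 2974 to 4241 CPM and 1131 to 3047 CPM, and their part was not tested. The corresponding change was 0.46 in STR/ort (adjusted p = 0.0996) and 0.33 in MRL/MpJ (adjusted p = 0.706), where no member was called (1.18% of all genes), 1 had an unadjusted p under 0.05 in edgeR and DESeq2 called 0. At 1-week by itself the C57BL/6 difference was 0.40 ± 0.10 (adjusted p = 0.00942) and the STR/ort difference 0.31 (588, 583, 683, 574 and 671 against 522, 488, 494 and 487 CPM, adjusted p = 0.043), both under 1.5-fold.

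Across the strains, none of the 10 members passed both thresholds at 1-week in MRL/MpJ (3.13% of all genes called) or C57BL/6 (5.82%), where edgeR gave an unadjusted p under 0.05 for 4 members each and DESeq2 called none. Tnfrsf11b in C57BL/6 was called with housekeeping scaling and with the bone marker scaling (0.59 each), and in STR/ort Ctsk (0.82) and Nfatc1 (0.85) were called higher after injury with the bone marker scaling. The median log2 change of the members at 1-week was 0.14, 0.16 and -0.13 in MRL/MpJ, C57BL/6 and STR/ort, and of all genes -0.01, -0.01 and -0.03. At 2-weeks no member was called in any strain, with 1.16%, 2.95% and 4.66% of all genes called, 1, 1 and 2 members at an unadjusted p under 0.05 in edgeR and none called by DESeq2. The largest 2-weeks differences were in Calcr and Tnfsf11. Calcr was 1.35, 2.199, 2.32, 1.45 and 1.98 CPM in injured MRL/MpJ joints and 3.59, 3.55, 2.41, 2.93 and 2.82 CPM in contralateral joints, without overlap, yet the adjusted p was 0.215 (-0.73 ± 0.25, log2, SE). Tnfsf11 in STR/ort was 4.46, 5.44, 5.21, 5.04 and 7.76 CPM in injured and 3.17, 2.73, 4.47, 4.62 and 4.24 CPM in contralateral joints (0.53 ± 0.18, adjusted p = 0.0466, under 1.5-fold).

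The wider pathway was read from 48 further genes in 4 lists. Of the 12 genes of RANK signalling and osteoclast transcription, among them Traf6, Nfkb1, Fos and Mitf, none was called in any of the 9 injury comparisons, in which 1.16% to 9.21% of all genes were. A count of 0 of 12 lies near that share and is no result about the list, and its median log2 change lay between -0.02 and 0.18. From the 4 lists together, only the genes with the largest called change in each direction per comparison are named next. As extremes they do not describe their lists, for which counts are not given here. Trem2, an immune receptor of osteoclast precursors and macrophages, rose at 1-day in MRL/MpJ (9.10 against 4.85 CPM, log2 0.93, adjusted p = 0.000841) and in C57BL/6 (27.9 against 6.67 CPM, 2.03, adjusted p = 7.09e-11). Csf1, which encodes the growth factor M-CSF, rose in STR/ort at 1-day (114 against 73.5 CPM, 0.61, adjusted p = 7.39e-06). Oscar, a co-stimulatory receptor of osteoclasts, fell by 0.63 on the log2 scale in C57BL/6 at 1-day (adjusted p = 0.0158). Mmp14, a membrane collagenase that fibroblasts also make, was the pathway gene with the largest increase at 1-week in each strain, by 0.93 in MRL/MpJ (adjusted p = 1.07e-05), 1.26 in C57BL/6 (8.7e-09) and 1.53 in STR/ort (1.36e-09). Sost, the osteocyte gene for sclerostin, fell in STR/ort at 1-week from 71.3 to 36.4 CPM (-0.99, adjusted p = 0.00135). At 2-weeks Mmp14 was again the gene with the largest increase in C57BL/6 (0.65) and STR/ort (1.09), Sost fell in STR/ort (-0.59), and in MRL/MpJ, where 1.16% of all genes were called, none of the 48 was.

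In uninjured contralateral joints at 1-day, 7 of the 10 members were lower in MRL/MpJ than in either other strain. Atp6v0d2 was 43.6, 31.3, 40.7, 49.1 and 51.2 CPM in MRL/MpJ, 83.2, 92.7, 78.5, 94.0 and 107 CPM in C57BL/6 and 73.9, 86.4, 94.0, 48.6 and 88.7 CPM in STR/ort. Ctsk was 319, 249, 323, 367 and 457 CPM in MRL/MpJ, 568.0, 582, 540, 684 and 629 CPM in C57BL/6 and 477, 626, 640, 379 and 554 CPM in STR/ort. Every C57BL/6 joint lay above every MRL/MpJ joint for both genes, while for STR/ort replicate 4 overlapped MRL/MpJ. Atp6v0d2 was higher in C57BL/6 than in MRL/MpJ by 1.11 ± 0.16 (log2, SE; adjusted p = 1.74e-06) and in STR/ort by 0.90 ± 0.16 (adjusted p = 2.14e-05), and Ctsk by 0.85 ± 0.14 (adjusted p = 1.88e-05) and 0.69 ± 0.14 (adjusted p = 0.000147). The same 7 members, Tnfsf11, Tnfrsf11b, Atp6v0d2, Ctsk, Acp5, Dcstamp and Ocstamp, were called higher in both, where 14.8% (C57BL/6) and 22.6% (STR/ort) of all genes were called, 9% and 13.1% in that direction, but the comparisons share their MRL/MpJ joints. The median member difference was 0.80 for C57BL/6 and 0.66 for STR/ort, against 0.02 and 0.03 over all genes. Between STR/ort and C57BL/6 no member was called (10.5% of all genes), with 1 at an unadjusted p under 0.05 in edgeR and none called by DESeq2. In the same joints 8 of 10 osteoblast and osteocyte markers were higher than in MRL/MpJ in each strain, with sums of 1474 to 1940 CPM in MRL/MpJ, 2552 to 3069 CPM in C57BL/6 and 2411 to 3985 CPM in STR/ort. In that order of strains, chondrocyte sums were 1022 to 2320, 2974 to 4241 and 2769 to 6127 CPM. B cell sums were 108 to 132, 184 to 280 and 220 to 329 CPM. T cell sums (62.5 to 86.9, 29.6 to 40.8 and 26.8 to 35.5 CPM) ran the other way. So did erythroid sums (3986 to 4765, 2451 to 3754 and 1580 to 2519 CPM). Fast muscle sums were 59910 to 77970, 35150 to 83080 and 30290 to 52500 CPM. With 1 RUVg factor 4 members were called for C57BL/6 and 0 for STR/ort, with 2 factors 3 and 0, and with housekeeping scaling 7 and 3. With the bone marker scaling 0 were called for C57BL/6, and for STR/ort 0 of these 7, while Calcr (-0.80), Tnfrsf11a (-0.68) and Nfatc1 (-0.63) were called below MRL/MpJ there. The part of bone and of these other tissues in the differences was not tested. Single joints also decided some of these calls. Against MRL/MpJ, STR/ort was not called for Acp5 without MRL/MpJ replicate 2 (0.54) or STR/ort replicate 3 (0.57), for Dcstamp without STR/ort replicate 3 (0.53), and for Ocstamp without MRL/MpJ replicate 2 (0.53) or STR/ort replicates 2 (0.57) or 3 (0.50), and C57BL/6 was not called for Tnfrsf11b without MRL/MpJ replicates 2 (0.56) or 3 (0.49) or C57BL/6 replicate 5 (0.55).

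At 1-week the contralateral joints of STR/ort stood apart from both other strains. Ocstamp was 5.65, 7.37, 7.97 and 6.64 CPM in STR/ort, 3.12, 1.71, 3.67, 3.24 and 5.11 CPM in C57BL/6 and 2.49, 2.68, 1.81 and 3.77 CPM in MRL/MpJ. Dcstamp was 10.9, 7.74, 9.54 and 6.98 CPM in STR/ort, 6.24, 5.78, 5.28, 3.48 and 4.62 CPM in C57BL/6 and 3.62, 4.43, 2.52 and 5.71 CPM in MRL/MpJ. Both fusion genes were higher in every STR/ort joint than in any joint of the other strains. Tnfrsf11b, whose values are given above, was higher in STR/ort than in C57BL/6 by 1.79 ± 0.14 (log2, SE; adjusted p = 2.87e-11), a call kept under every alternative, and higher than in MRL/MpJ by 1.31 ± 0.15 (adjusted p = 2.61e-08). In all, STR/ort exceeded C57BL/6 in 6 called members (22.2% of all genes called, 13.1% higher) and MRL/MpJ in 7 (24.4%, 13.7% higher). The first set held Tnfrsf11b, Ocstamp (1.04), Dcstamp (0.83), Calcr (0.80), Tnfsf11 (0.74) and Acp5 (0.62), and the second Tnfsf11 (1.62), Ocstamp (1.39), Tnfrsf11b, Dcstamp (1.14), Atp6v0d2 (0.75), Ctsk (0.71) and Acp5 (0.67). The median member difference was 0.68 from C57BL/6 and 0.73 from MRL/MpJ, against 0.01 over all genes in both.

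Markers of other cell types differed between the same 1-week joints, and the member calls changed with the scaling. Of the 10 osteoblast and osteocyte markers 9 were higher in STR/ort than in either strain, with sums of 2966 to 4402 CPM against 1429 to 2075 CPM in C57BL/6 and 1457 to 1898 CPM in MRL/MpJ. All 8 chondrocyte markers and 7 of 8 fibroblast and synovium markers were higher than in C57BL/6, and the part of these cell types in the member differences was not tested. With 1 RUVg factor 1 member was called against each strain, and with 2 factors 1 against C57BL/6 and 0 against MRL/MpJ, each of them Tnfrsf11b. With the bone marker scaling Tnfrsf11b was called higher than in C57BL/6 (0.80) but Tnfrsf11a (-0.69) and Atp6v0d2 (-0.62) lower, and Tnfsf11 was the 1 member called against MRL/MpJ (0.61). Acp5 and Tnfsf11 turned in sign against C57BL/6 with 1 RUVg factor (-0.12 and -0.15) and with the bone marker scaling (-0.37 and -0.23), a scaling that moved the median of all genes by -0.98 in this comparison. Calcr was not called without STR/ort replicates 2 (0.66) or 3 (0.68), and Acp5 not without STR/ort replicate 1 (0.56) or C57BL/6 replicate 2 (0.54).

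**Figure D4:**
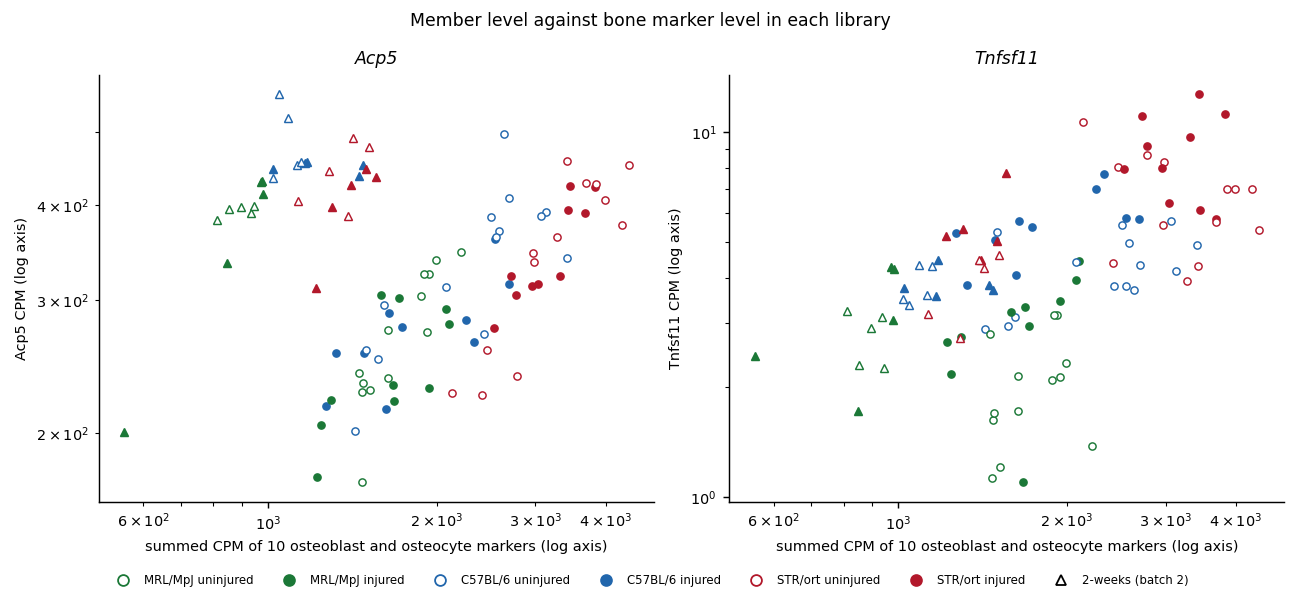
CPM of Acp5 and of Tnfsf11 in every library against the summed CPM of 10 osteoblast and osteocyte markers, on log axes, coloured by strain, with triangles for the 2-weeks libraries. Contralateral STR/ort joints at 1-week lie to the right, at marker sums of 2966 to 4402 CPM, and the 2-weeks libraries to the left, at 555 to 1558 CPM.

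Members were also called between strains in injured joints. At 1-day STR/ort exceeded MRL/MpJ in 6 called members (20.3% of all genes called) and C57BL/6 exceeded MRL/MpJ in 2, Tnfsf11 (0.94) and Atp6v0d2 (0.62; 16.3%). Scaling changed these counts. With RUVg of 1 or 2 factors 0 members were called at 1-day for STR/ort over MRL/MpJ and 1 for C57BL/6, with housekeeping scaling 2 and 1, and with the bone marker scaling STR/ort was called higher for Tnfsf11 (0.66) and lower for Tnfrsf11a (-0.77). Calls over MRL/MpJ that a single injured joint decided were, for STR/ort, Acp5 (0.53 to 0.58 without MRL/MpJ replicates 2, 3 or 5 or STR/ort replicates 2, 3 or 4), Dcstamp (0.48 to 0.57 without MRL/MpJ replicates 3 or 4 or STR/ort replicates 1, 3 or 4) and Ocstamp (0.50 without replicate 3 of either strain), and for C57BL/6 Atp6v0d2 (0.49 to 0.56 without MRL/MpJ replicate 5 or C57BL/6 replicates 2 or 5). At 1-week STR/ort exceeded C57BL/6 in 3 called members (25.1%), Tnfsf11 (0.93), Tnfrsf11b (0.78) and Nfatc1, and MRL/MpJ in 6 (29.5%), with Tnfsf11 the largest (1.82 ± 0.21 log2, SE; adjusted p = 1.36e-08). These counts of 3 and 6 were 1 and 1 with RUVg of 1 or 2 factors, 2 and 4 with housekeeping scaling, and 0 and 1 with the bone marker scaling. Other cell types differed between the same injured joints. At 1-day, 5 of 10 osteoblast and osteocyte markers were higher in STR/ort than in MRL/MpJ (sums of 3036 to 3828 CPM against 1669 to 2101 CPM), and 6 of 8 fibroblast and synovium markers were higher than in MRL/MpJ in STR/ort and in C57BL/6. At 1-week 5 of 10 osteoblast and osteocyte markers were higher in STR/ort than in either strain, 1 being lower than in MRL/MpJ, with sums of 2528 to 3436 CPM against 1270 to 1732 CPM in C57BL/6 and 1222 to 1714 CPM in MRL/MpJ. The fibroblast and synovium markers were higher in 7 of 8 (11830 to 15700 CPM against 4578 to 5180 and 4558 to 5207 CPM), and the part of these cell types was not tested. Between STR/ort and C57BL/6 at 1-day none was called (12.4%), with 3 at an unadjusted p under 0.05 in edgeR and 0 in DESeq2, whereas Tnfrsf11a was called lower in STR/ort with housekeeping scaling (-0.67), 1 or 2 RUVg factors (-0.68 each) and the bone marker scaling (-0.88). Tnfsf11 was the one member called between C57BL/6 and MRL/MpJ at 1-week, in injured joints (0.89, 9.47% of all genes) and in contralateral joints (0.88, 8.53%). The contralateral call was lost without MRL/MpJ replicates 1 (0.68) or 3 (0.68) or C57BL/6 replicate 4 (0.71), and with the compared groups alone (0.88, adjusted p = 0.0587), and both calls were lost with 2 RUVg factors. At 2-weeks Tnfrsf11b was higher in contralateral STR/ort joints than in C57BL/6 (0.74, adjusted p = 0.00113, 9.78% of all genes) and MRL/MpJ (0.65, adjusted p = 0.00222, 13.8%), the second not without STR/ort replicate 4 (0.54) nor with 1 RUVg factor (0.57) or 2 (0.55, adjusted p = 0.0764), and neither with the bone marker scaling (0.42 and 0.055). Ocstamp was higher in C57BL/6 than in MRL/MpJ, at 4.71 ± 0.49 against 2.57 ± 0.51 CPM in contralateral joints (SD, n = 5; 0.87, adjusted p = 0.00121, 9.83%). In these joints chondrocyte sums were 2495 to 2961 against 1269 to 1929 CPM and osteoblast and osteocyte sums 1021 to 1148 against 810 to 944 CPM. B cell sums were 305 to 340 against 93.6 to 131 CPM, and T cell sums went the other way, at 31.3 to 39.4 against 39.6 to 48.2 CPM. In injured joints at 2-weeks C57BL/6 exceeded MRL/MpJ in Ocstamp (0.70) and Dcstamp (0.67), with 11.5% of all genes called, and STR/ort exceeded MRL/MpJ in Tnfsf11 (0.84, adjusted p = 0.00033, 18.9%). The Ocstamp call was lost without MRL/MpJ replicates 3 (0.58) or 4 (0.56) and the Dcstamp call without MRL/MpJ replicate 4 (0.49) or C57BL/6 replicate 1 (0.55). With the bone marker scaling these calls in injured joints were lost too (Tnfsf11 0.23, Ocstamp 0.26, Dcstamp 0.21), and that of Ocstamp also with the compared groups alone (0.68, adjusted p = 0.0541). Injured MRL/MpJ replicate 4 at 2-weeks stood apart from its group, with a chi-square per degree of freedom over all genes of 43.7 to 86.9 against the other 4 joints, which had 1.86 to 13.7 among themselves. Between injured C57BL/6 and MRL/MpJ joints at 2-weeks 7 of 8 chondrocyte markers (2238 to 4301 CPM against 1008 to 2275 CPM), 5 of 10 osteoblast and osteocyte markers and 6 of 6 B cell markers were higher in C57BL/6. Between injured STR/ort and MRL/MpJ joints 7 of 8 chondrocyte, 6 of 10 osteoblast and osteocyte and 6 of 8 fibroblast and synovium markers were higher in STR/ort. In contralateral STR/ort joints 5 of 8 fibroblast and synovium markers were higher than in C57BL/6 and 6 of 8 higher than in MRL/MpJ, and the part of these cell types in the 2-weeks differences was not tested. No member was called between injured STR/ort and C57BL/6 joints (10.4%), where 3 had an unadjusted p under 0.05 in edgeR, DESeq2 called 0 and housekeeping scaling 1 (Tnfsf11, 0.61).

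**Figure D5:**
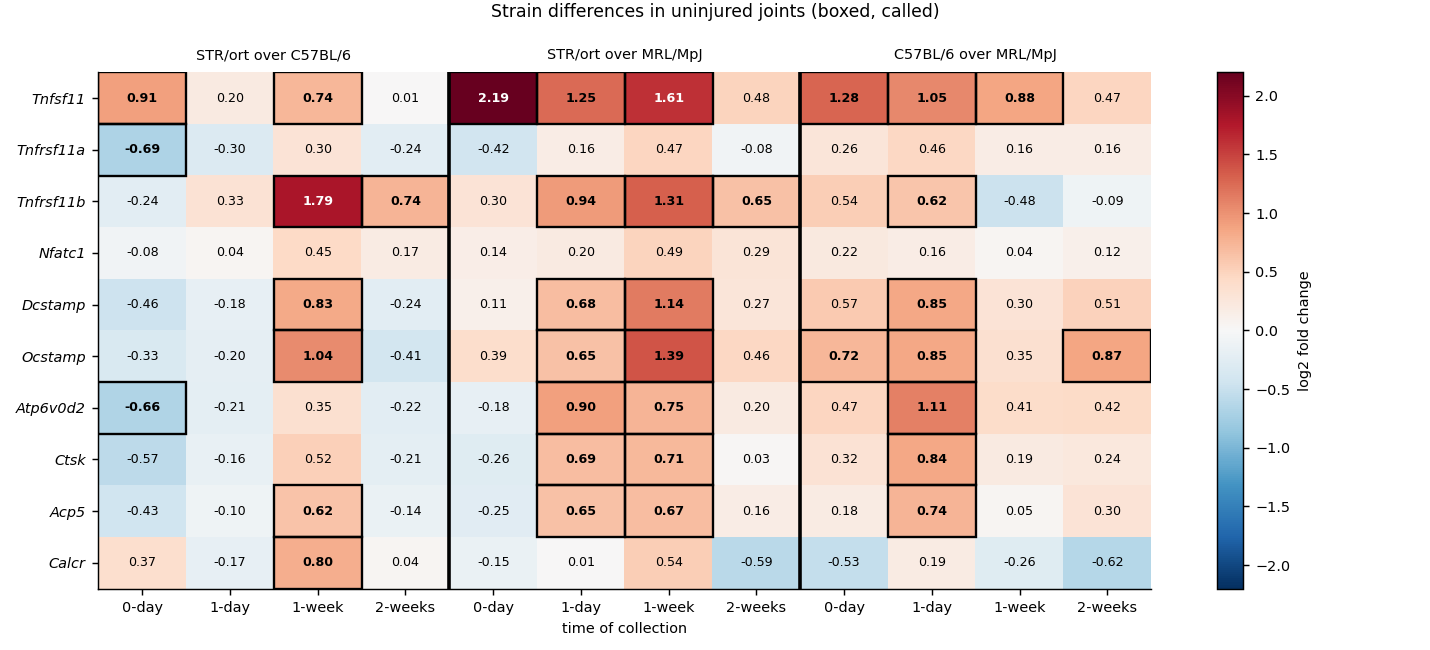
Heat map of log2 differences between strains in uninjured joints for the 10 members, by time from 0-day to 2-weeks, with boxes around called differences. Tnfsf11 is called in all 3 pairs at 0-day, and the columns of STR/ort at 1-week hold 6 and 7 boxes.

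Uninjured joints were not at one level over time. In STR/ort, Tnfsf11 fell by 0.82 ± 0.22 (log2, SE; adjusted p = 0.00278) from 8.92 ± 1.196 CPM at 0-day (SD, n = 4) to 3.92, 5.68, 4.30, 4.38 and 7.01 CPM in contralateral joints at 1-day, all below every 0-day joint. Ctsk (0.71, adjusted p = 3.75e-05) and Atp6v0d2 (0.67, adjusted p = 0.000554) rose over the same day, making 3 members called where 9.92% of all genes were. With RUVg of 1 or 2 factors or the bone marker scaling both rises were no longer called, while the Tnfsf11 decrease was. Between the same joints 8 of 8 fast muscle markers fell (sums of 74270 to 84140 CPM at 0-day and 30290 to 52500 CPM at 1-day), 4 of 8 macrophage markers rose (247 to 310 CPM and 357 to 456 CPM) and 2 of 8 fibroblast and synovium markers rose (4458 to 8530 CPM and 9395 to 13340 CPM), and their part was not tested. From 0-day to 1-week 8 of 10 members rose in contralateral STR/ort joints (13.6% of all genes called, 5.37% higher), led by Calcr (0.98) and Tnfrsf11b (0.92, adjusted p = 0.000294), and the median member change was 0.59 against 0.04 over all genes. Fast muscle markers fell over the same interval, 8 of 8, while 4 of 10 osteoblast and osteocyte, 6 of 8 macrophage and 7 of 8 fibroblast and synovium markers rose, and their part was not tested. Of the 8 rises, those of Calcr, Tnfrsf11b and Dcstamp were kept with housekeeping scaling, that of Calcr with RUVg of 1 or 2 factors, and 0 with the bone marker scaling. Calcr (0.99, adjusted p = 0.0536) and Ocstamp (0.64, adjusted p = 0.0579) were not called with the compared groups alone, Acp5 not with RLE size factors (0.58) or DESeq2 (0.58), and Tnfrsf11a not with RLE size factors (0.59). Under RUVg and the bone marker scaling Tnfsf11 was called lower at 1-week than at 0-day (-0.97, -0.97 and -1.02). Calls were also lost without single joints, namely 0-day replicate 1 (Tnfrsf11a 0.58, Ocstamp 0.56), 0-day replicate 3 (Acp5 0.56), 0-day replicate 4 (Ctsk 0.53, Acp5 0.54, Tnfrsf11a 0.56, Ocstamp 0.50, Atp6v0d2 0.53), and 1-week replicates 1 (Ctsk 0.56, Acp5 0.52, Tnfrsf11a 0.54, Dcstamp 0.61), 2 (Ocstamp 0.63), 3 (Acp5 0.55, Tnfrsf11a 0.52, Ocstamp 0.54, Atp6v0d2 0.51) and 4 (Ocstamp 0.65).

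In C57BL/6 the contralateral joints moved the other way by 1-week. Tnfrsf11b fell by 1.08 ± 0.21 (log2, SE; adjusted p = 0.000107) from 18.4, 22.4, 20.3 and 34.0 CPM at 0-day to 8.75 to 14.0 CPM, without overlap, a call lost with the bone marker scaling (-0.18). Ocstamp fell by 0.70 (adjusted p = 0.0366), a call lost without 0-day replicates 2 (-0.61), 3 (-0.59) or 4 (-0.73) or 1-week replicates 1 (-0.68), 2 (-0.55) or 4 (-0.67) and with the compared groups alone (-0.69), and reversed with the bone marker scaling (0.13). Under that scaling Calcr (1.45) and Nfatc1 (0.65) were called higher at 1-week instead. Without the bone marker scaling, Tnfrsf11b and Ocstamp were the 2 members called, where 5.72% of all genes were. All 10 osteoblast and osteocyte and all 8 chondrocyte markers fell in the same comparison, and their part was not tested. In MRL/MpJ no member was called from 0-day to 1-day (0.0924% of all genes) or to 1-week (0%), nor in C57BL/6 from 0-day to 1-day (0.0693%), with 2 members at an unadjusted p under 0.05 in edgeR in each and 0 called by DESeq2. The injury effect of STR/ort on Tnfrsf11b differed between 1-week and 1-day by -0.81 ± 0.26 (adjusted p = 0.032, 6.1% of all genes), a call lost in 8 of 70 fits that left out a library, all of them STR/ort joints, where it lay between -0.79 and -0.66. Most of the 70 libraries lay outside the STR/ort groups compared, whereas these 8 lay within them. The call was also lost with housekeeping scaling (-0.70), with the compared groups alone (-0.80) and with the bone marker scaling (-0.24). The bone marker scaling instead called 3 members with a higher injury effect at 1-week than at 1-day in STR/ort.

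Within groups, the resorption genes followed one another from joint to joint. After removal of group means, Pearson's r over the 100 libraries was 0.88 between Ctsk and Atp6v0d2, 0.84 between Ctsk and Acp5 and 0.83 between Acp5 and Atp6v0d2. Among 14416 other genes, Slc37a2, a sugar-phosphate transporter of macrophages and osteoclasts, was most like Acp5 (0.85) and among the 3 most like Ctsk (0.84), and Mmp13, a collagenase of osteoblasts and hypertrophic chondrocytes, was among the 3 most like Atp6v0d2 (0.81). Dcstamp was most like Col10a1 (0.62), the collagen of hypertrophic cartilage, followed by Acp5 and Panx3 (0.60 each), and Ocstamp was most like Cd109 (0.62), Acp5 (0.60) and Tm4sf19 (0.60). Tnfrsf11b was most like the cartilage genes Clec3a (0.84) and Chad (0.79) and like Mfi2 (0.80). The joints share library depth, dissection and base composition across genes, so these values are descriptions.

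The signalling genes were less tied to each other. Tnfsf11 and Tnfrsf11b had an r of 0.36, Tnfsf11 and Tnfrsf11a of 0.18, and Nfatc1 and Tnfrsf11a of 0.01. Nfatc1 was most like Plxnd1 and Creb3l2 (0.62 each) and Sdc1 (0.61), Tnfrsf11a most like Dctd (0.53), Spp1 (0.52) and Tmem173 (0.47), Tnfsf11 most like Il12rb1 (0.52), 1190002N15Rik (0.47) and Scube1 (0.47), and Calcr most like Ilkap (0.48), Parp16 (0.43) and Zkscan6 (0.43). Acp5 had an r of 0.66 with the mean of the osteoblast and osteocyte markers, 0.72 with the chondrocyte markers and -0.60 with the fast muscle markers, the values farthest from 0 among the members. For the other 9 members r lay between -0.10 (Calcr) and 0.57 (Tnfrsf11b) with the osteoblast and osteocyte markers, between 0.067 (Calcr) and 0.59 (Ctsk) with the chondrocyte markers and between -0.51 (Atp6v0d2) and -0.12 (Calcr) with the fast muscle markers.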

How the data were processed

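RNA-seq reads of 100 mouse knee joints had been aligned to mm10 with TopHat2 2.0.11 and assigned to genes with featureCounts of the Rsubread package, and the authors deposited raw counts per gene, without normalization. Of 17313 rows, 3 identical repeats were dropped, which left 17310 genes. All columns were mapped to samples (0 unmapped), and none of the 190 pairs of libraries within groups was identical. A minimum of 2 counts in 5 libraries removed 0 genes. Totals ranged from 6182016 to 20986027 counts, so that members at a few counts per library carry the largest counting error.

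The 10 members, the pathway lists and the marker lists were chosen with earlier results of these data known. Counts were tested with edgeR 4.0.16 in R 4.3.3 (quasi-likelihood, TMM factors, Benjamini-Hochberg over all genes, adjusted p under 0.05 and fold over 1.5), in separate fits for 0-day (12 libraries), 1-day (30), 1-week (28) and 2-weeks (30), and in a fit of the 70 libraries of batch 1 for steps in time. SE are the log2 fold change over the root of F, and intervals are at 95%, from the t distribution with the total degrees of freedom of each gene's test. The 1-week fit was also run on simulated counts with known changes in injured STR/ort joints, and its result is not given here. Where the labels name no separate animals, p-values measure only the spread between the samples, which may be technical. The study removed unwanted variation with RUVSeq on 25 housekeeping genes without giving the number of factors, so RUVg with 1 and 2 factors served as alternatives, beside DESeq2 1.42.0, RLE size factors, housekeeping scaling, other count filters, the compared groups alone, a replicate block and leaving out each library. A scaling to 10 osteoblast and osteocyte markers was added after the data had been seen. RPKM used union exon lengths of GENCODE vM21. Correlations used log2 CPM with a prior count of 2 and genes with a mean of at least 1 CPM.

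All 10 members are described. Pathway genes named are those with the largest called fold in each direction per injury comparison, and for each member the 3 genes with the highest correlation were ranked. Promoter windows were cut to 250 bases before the RefSeq start. Labels name the same animal for both joints at 2-weeks (15 pairs). At 1-day and 1-week samples shared only a number. The 4 same-numbered STR/ort pairs at 1-week had correlations of 0.162 to 0.37, but C57BL/6 replicate 2 at 1-week reached 0.431. The MRL/MpJ pairs named as the same animal at 2-weeks ran from -0.279 to 0.082. These correlations therefore do not identify pairs.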

Additional observations from a re-analysis of the deposited data

Results flagged for a closer look

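Within groups, 1 library lay far from the others of its group (by Dixon's 95% critical value) in 11 of 210 group tests, and chance gives about 1 in 20. Among MRL/MpJ contralateral joints at 1-week, replicate 4 was high for Ctsk (398 CPM), Acp5 (325 CPM) and Atp6v0d2 (52.3 CPM) together, and replicate 3 was low for Tnfrsf11b (14.4 CPM). Tnfrsf11b was low in injured C57BL/6 replicate 3 at 1-day (12.4 CPM) and Tnfrsf11a in contralateral C57BL/6 replicate 2 at 1-day (13.1 CPM). Calcr was low in MRL/MpJ replicate 1 at 0-day (1.298 CPM) and high in contralateral STR/ort replicate 2 at 1-day (2.39 CPM). At 2-weeks Ctsk was low in injured STR/ort replicate 3 (234 CPM), Tnfsf11 high in injured C57BL/6 replicate 3 (4.48 CPM) and Nfatc1 high in contralateral STR/ort replicate 5 (115 CPM).

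By edgeR's quasi-likelihood test of the difference itself, 4 injury effects differed between groups. For Tnfrsf11b at 1-week the STR/ort effect was below those of C57BL/6 (-1.01 log2, adjusted p = 0.00835) and MRL/MpJ (-0.91, adjusted p = 0.0163), 2 comparisons that share their STR/ort joints, and in STR/ort it was lower at 1-week than at 1-day (-0.81, adjusted p = 0.032, a call lost with housekeeping scaling, with the bone marker scaling and with the compared groups alone). The Ctsk effect in C57BL/6 was higher at 1-week than at 1-day (0.77, adjusted p = 0.00571).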

How the results depend on the processing

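Calls of members numbered 6 at 0-day, 3 for injury at 1-day, 1 at 1-week and 0 at 2-weeks, 2 for differences of injury effects, 21 and 31 between strains in injured and contralateral joints, and 18 over time, 82 in all. DESeq2 kept 80 of the 82, RLE size factors 79, both other count filters 82 each, the compared groups alone 76 and housekeeping scaling 60. RUVg with 1 factor kept 33 and with 2 factors 27, and the bone marker scaling, chosen after seeing the data, 15. RUVg with 1 factor gave 0 calls for injury at 1-week, 8 between strains in injured joints, 9 in contralateral joints and 9 over time. RUVg with 2 factors gave 2 at 0-day, 5 for injury at 1-day, 9 in injured joints, 8 in contralateral joints and 11 over time. Housekeeping scaling gave 2 for injury at 1-week. The bone marker scaling gave 1 for injury at 1-day, 4 at 1-week, 1 difference of injury effects, 9 between strains in injured and 13 in contralateral joints. It moved the median of all genes by up to 1.00 (log2) and housekeeping scaling by up to 0.17. Leaving out each library gave 4 to 9 calls at 0-day, 2 to 4 for injury at 1-day, 0 to 2 at 1-week and 0 to 1 at 2-weeks, 2 differences of injury effects each time, 18 to 23 between strains in injured joints, 28 to 32 in contralateral joints and 13 to 21 over time, and kept 2933 of 3018 calls. In most leave-one-out fits the library left out lay outside the compared groups. The cause of these changes in the calls was not tested.

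Some called differences turned in sign (log2). With 1 RUVg factor these were, in contralateral joints at 1-week, STR/ort over C57BL/6 for Acp5 (-0.12) and Tnfsf11 (-0.15) and over MRL/MpJ for Acp5 (-0.17). With 2 factors they were Acp5 (-0.20) and Tnfsf11 (-0.21) over C57BL/6 and Acp5 (-0.38) and Atp6v0d2 (-0.027) over MRL/MpJ in the same joints, in injured joints Tnfsf11 (-0.043) over C57BL/6 and Ocstamp (-0.048) and Atp6v0d2 (-0.039) over MRL/MpJ, and at 0-day C57BL/6 over MRL/MpJ for Ocstamp (-0.41). With the bone marker scaling they were, at 1-day over MRL/MpJ, Ctsk (-0.15), Acp5 (-0.20), Dcstamp (-0.15) and Ocstamp (-0.16) in contralateral and Acp5 (-0.041) and Dcstamp (-0.043) in injured STR/ort joints and Tnfrsf11b (-0.05) in contralateral C57BL/6 joints. At 1-week in contralateral STR/ort joints they were Acp5 (-0.37), Calcr (-0.16), Tnfsf11 (-0.23) and Dcstamp (-0.20) over C57BL/6 and Ctsk (-0.29), Acp5 (-0.35) and Atp6v0d2 (-0.24) over MRL/MpJ. Over time they were Ocstamp (0.13) in contralateral and Tnfrsf11b (0.11) in injured C57BL/6 joints.

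The fit with the replicate number as a block kept 5 of the 6 injury and interaction calls. Tnfsf11 in STR/ort at 1-week fell under 1.5-fold (0.51), Tnfrsf11b there became called (-0.63), and Tnfrsf11a at 1-day was 0.72 in MRL/MpJ and 0.67 in C57BL/6. Injured STR/ort replicate 5 at 1-week has no contralateral partner and does not enter the block estimates. Correlations of deviations between same-numbered joints had medians of 0.108 at 1-day (15 pairs), 0.162 at 1-week (13) and 0.213 at 2-weeks (15). Depth limits Calcr, Ocstamp and Tnfsf11 most, whose lowest libraries held 6, 13 and 8 counts.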
